A study of Mus musculus with 8 samples.

Results

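The genes described here are 7 rows of a table of 19673 genes: the 4 mouse Fc gamma receptors Fcgr1, Fcgr2b, Fcgr3 and Fcgr4, the adaptor chains Fcer1g and Tyrobp, and the kinase Syk. They were chosen by name and each name matched 1 row. Bulk RNA was sequenced from CD45+CD3e+CD8+ live cells sorted from tumours of Py8119, a mouse mammary tumour line, grown in hosts of either Mtdh genotype. Each group, Mtdh KO hosts and WT hosts, was represented by 4 libraries, which are biological replicates and are numbered 1 to 4 as in the labels. The injected tumour cells were the same line in both groups, so the genotype is that of the host. The labels give neither the way the Mtdh allele was made, nor the strain, age and sex of the hosts, nor the time of harvest. Values are called normalized counts here, since the name of the authors' table points to gene-level counts scaled by DESeq2, although not all low values are whole reads on that scale.

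Fc gamma receptors bind the constant part of IgG. Fcgr1, Fcgr3 and Fcgr4 are activating receptors that signal through the ITAM, a tyrosine motif, of the common gamma chain encoded by Fcer1g. Fcgr2b carries an inhibitory motif, the ITIM, in its own tail and counteracts them. Tyrobp (DAP12) is a related ITAM chain that serves TREM2 and many other myeloid and NK receptors, and Syk is the kinase recruited by phosphorylated ITAMs of both chains. In tumours these genes are best known from macrophages, monocytes and dendritic cells, whereas conventional T cells use the CD3 chains and Zap70 for the same kind of signal. Fcgr2b is also known from B cells and has been described on some effector CD8 T cells.

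Depth was estimated at 16400000 to 29600000 reads per library, but these were estimated to come from far fewer distinct cDNA fragments. By that estimate a single fragment was worth a normalized count of 25.5 in WT library 3 and 142 in KO library 2. These were the most and the least complex of the 8 libraries on this measure. Mtdh itself was at 3905 ± 1179 in KO and 9113 ± 2699 in WT libraries (SD, n = 4 each), with no overlap (log2 fold change -1.23, limma adjusted p = 0.0400). That call ended without any 1 of KO libraries 2, 3 and 4 and WT libraries 1 and 2, with adjusted p of up to 0.241, or with a minimum mean of 50 (0.0945). All 12 CD8 T cell markers examined were above 0 in every library, and so were all 18 macrophage and monocyte markers, which lie outside the sort gate. Over the 8 libraries the macrophage and monocyte markers summed to between 134592 and 334490, and the CD8 T cell markers to between 7844 and 45476. In bulk RNA, fewer cells of a type and less RNA per cell cannot be told apart.

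In the authors' table, on mm39, Fcgr2b (ENSMUSG00000026656, minus strand, 170786186 to 170804116), Fcgr4 (ENSMUSG00000059089, plus strand, 170846489 to 170857330) and Fcgr3 (ENSMUSG00000059498, minus strand, 170878743 to 170892504) lie next to each other on chromosome 1, with no other protein-coding gene of the table between them. Fcer1g (ENSMUSG00000058715, minus strand, 171057141 to 171061934) lies further along the same chromosome. Fcgr1 (ENSMUSG00000015947) is on chromosome 3 at 96190225 to 96201285, Tyrobp (ENSMUSG00000030579) on chromosome 7 at 30113185 to 30117010, and Syk (ENSMUSG00000021457) on chromosome 13 at 52737209 to 52802828. Only Fcgr2b overlapped another listed gene, the antisense noncoding RNA Gm38204, which was at 0 in 6 of 8 libraries and at most 26.8.

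The promoters of the 4 receptors are printed because Fcgr4 stood apart from the others in the comparison below. Of the 7 genes, 6 matched RefSeq's promoter table (GRCm38.p6), which gives 250 bases before and 50 after a transcription start, and the first listed start of each gene is shown. The windows are chr1:171018676-171018975 on the plus strand for Fcgr4, and on the minus strand chr3:96293920-96294219 for Fcgr1, chr1:171059354-171059653 for Fcgr3 and chr1:170976022-170976321 for Fcgr2b. Capitals mark the letters of any of 3 motifs, searched on both strands.
Fcgr4 promoter: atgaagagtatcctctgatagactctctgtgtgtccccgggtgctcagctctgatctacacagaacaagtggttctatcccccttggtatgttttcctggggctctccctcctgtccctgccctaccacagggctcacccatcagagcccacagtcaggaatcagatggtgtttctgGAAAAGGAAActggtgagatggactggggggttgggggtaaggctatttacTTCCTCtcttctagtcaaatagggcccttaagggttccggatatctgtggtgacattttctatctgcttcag
Fcgr1 promoter: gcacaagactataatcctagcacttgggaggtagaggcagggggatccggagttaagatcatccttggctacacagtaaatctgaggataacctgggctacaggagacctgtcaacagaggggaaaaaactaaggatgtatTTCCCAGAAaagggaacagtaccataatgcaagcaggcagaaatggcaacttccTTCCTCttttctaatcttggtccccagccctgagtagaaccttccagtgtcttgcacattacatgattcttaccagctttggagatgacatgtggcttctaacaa
Fcgr3 promoter: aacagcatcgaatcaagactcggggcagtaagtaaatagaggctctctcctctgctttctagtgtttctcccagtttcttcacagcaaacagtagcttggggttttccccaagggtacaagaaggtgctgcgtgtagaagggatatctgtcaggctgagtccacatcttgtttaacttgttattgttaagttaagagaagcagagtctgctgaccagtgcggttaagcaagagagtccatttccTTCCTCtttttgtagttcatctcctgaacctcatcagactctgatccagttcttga
Fcgr2b promoter: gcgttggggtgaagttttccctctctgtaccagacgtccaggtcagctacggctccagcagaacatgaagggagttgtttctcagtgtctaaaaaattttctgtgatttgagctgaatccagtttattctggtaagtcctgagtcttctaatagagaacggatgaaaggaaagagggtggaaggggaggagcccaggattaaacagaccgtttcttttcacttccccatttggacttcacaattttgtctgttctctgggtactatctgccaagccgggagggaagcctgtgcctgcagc
The motifs were the core of a site for the myeloid factor PU.1 (GAGGAA), the interferon gamma-activated site (TTCNNNGAA) and an ISRE-like element for interferon regulatory factors (GAAA, a pair of any bases, then GAAA). The PU.1 letters were present in the first listed windows of Fcgr4, Fcgr1 and Fcgr3, which is 3 of the 6 members, and in 28.3% of 27025 promoters of the same length. The interferon gamma-activated letters were found in Fcgr1, from base 142, and in 8.47% of all promoters. The ISRE-like letters were found in Fcgr4, from base 178, and in 3.49% of all promoters. The PU.1 letters began at base 229 in Fcgr4, 196 in Fcgr1 and 245 in Fcgr3, always on the reverse strand and apart from the other 2 motifs. The first windows of Fcgr2b, Fcer1g and Syk held none of the 3, and a second listed start of Syk held the PU.1 letters from base 242. Such matches describe the letters and do not show that a factor binds there.

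Fcgr2b and Fcgr3 have extracellular parts of near-identical sequence, which limits how reads can be parted between them. The longest stretch common to their coding sequences in GENCODE vM21 transcripts (GRCm38) was 129 bases, coding bases 278 to 406 of Fcgr2b-201 and 263 to 391 of Fcgr3-201. It is given here as a part whose reads fit both genes, and further shared windows lie outside it.
Fcgr2b and Fcgr3 shared stretch: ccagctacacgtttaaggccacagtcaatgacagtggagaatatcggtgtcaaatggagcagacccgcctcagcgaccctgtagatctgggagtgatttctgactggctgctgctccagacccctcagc
Of all 50-base windows in their transcripts, 2.92% of those of Fcgr2b occur in Fcgr3 and 9.58% of those of Fcgr3 occur in Fcgr2b. With other genes included, 6.95% of the Fcgr2b windows were shared. None of the windows of Fcgr1, Fcgr4, Fcer1g, Tyrobp or Syk did. How the authors counted shared reads is not given in the sources used here, so the split of such reads between Fcgr2b and Fcgr3 is uncertain.

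Per length of exon, the inhibitory receptor Fcgr2b was the most abundant of the 7 genes in every library. Its mean over the 8 libraries was 5824 ± 1351 normalized counts per kb (SD), which was 3.45-fold that of Fcer1g at 1686 ± 348. Fcgr3 followed at 1497 ± 351, Fcgr4 at 905 ± 576 and Tyrobp at 849 ± 330. Syk was at 513 ± 125 and Fcgr1, the high-affinity IgG receptor, was lowest at 102 ± 57.0. The ends of this order were clear in all 8 libraries, Fcgr2b above Fcer1g and Syk above Fcgr1. Neighbours in the middle were not separated: Fcer1g exceeded Fcgr3 in 5 of 8 libraries, Fcgr3 exceeded Fcgr4 in 6, and Fcgr4 exceeded Tyrobp in 3. Tyrobp was above Syk in 7 of 8, the exception being KO library 2. The place of Fcgr4 differed by group: its mean per kb was 1351 in KO libraries, above Tyrobp at 782, and 459 in WT libraries, below Tyrobp at 915 and close to Syk at 472.

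**Figure D1:**
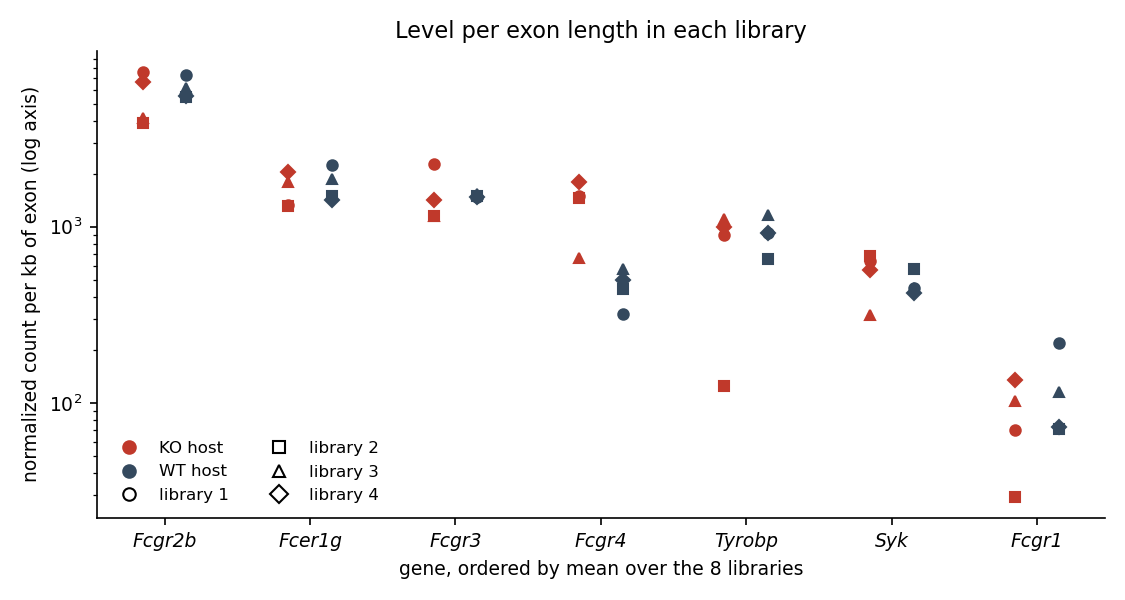
Normalized counts per kb of exon (log axis) for each of the 7 genes in each library, KO hosts in red left of WT hosts in dark blue, with the marker shape giving the library number. Fcgr2b lies above the rest in all 8 libraries, Fcgr1 lies lowest, and Fcgr4 is the one gene whose red and dark points do not overlap.

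Among the activating receptors, Fcgr4, which binds mouse IgG2a and IgG2b, separated the host genotypes. It was at 1865, 1834, 839 and 2250 normalized counts in KO libraries 1 to 4, and at 400.0, 555, 725 and 624 in WT libraries 1 to 4. All 4 KO values thus lay above all 4 WT values, although KO library 3 was only slightly above WT library 3. The means were 1697 ± 602 in KO and 576 ± 136 in WT libraries (SD, n = 4 each), and the fitted difference was 2.83-fold (log2 fold change 1.50, 95% interval 0.79 to 2.21, SE 0.34). By limma's moderated test the p was 0.00028, rank 49 of 16120 genes, and after Benjamini-Hochberg adjustment over all genes it was 0.0918, which did not pass the threshold of 0.05. The Fcgr4 values corresponded to an estimated 6.42 cDNA fragments in WT library 1 and 59.0 in KO library 4, the fewest and the most of the 8.

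The adjusted p of Fcgr4 depended on single libraries. Without KO library 3 the log2 fold change was 1.81 and the limma adjusted p 0.0133, and without KO library 4 they were 1.33 and 0.409. Fcgr4 also passed with a pseudocount of 10 (limma adjusted p = 0.0417), with sample weights (0.0108) and with robust hyperparameters (0.0442). Over all 16 alternatives its limma adjusted p ranged from 0.0108 to 0.409, and the log2 fold change stayed above 0 in each.

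Fcgr3, the low-affinity activating receptor of macrophages and NK cells, was at 3072, 1550, 1550 and 1909 in KO libraries and at 1991, 2005, 2062 and 1998 in WT libraries. The coefficient of variation was 35.7% in KO and 1.62% in WT libraries, and KO library 1 was the highest of all 8. The groups overlapped, and the log2 fold change was -0.06 (SE 0.25, 95% interval -0.58 to 0.47, limma adjusted p = 0.981).

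Fcgr1 was at 181, 76.0, 265 and 347 in KO libraries and at 565, 185, 296 and 189 in WT libraries. These values amounted to an estimated 0.533 fragments in KO library 2 and at most 11.6 in WT library 3, so by this estimate each rests on few molecules. The log2 fold change was -0.55 with a wide 95% interval of -1.95 to 0.85 (SE 0.67, limma adjusted p = 0.866). Without KO library 2 it was -0.12, and without WT library 1 it was -0.21.

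The inhibitory receptor Fcgr2b was at 28775, 14794, 15715 and 25325 in KO libraries and at 27715, 20736, 23435 and 21009 in WT libraries. KO libraries lay on both sides of the WT range, 2 below it and 1 above. The log2 fold change was -0.18 (SE 0.23, 95% interval -0.67 to 0.30, limma adjusted p = 0.870), and it was -0.35 without KO library 1 and -0.03 without KO library 2.

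**Figure D2:**
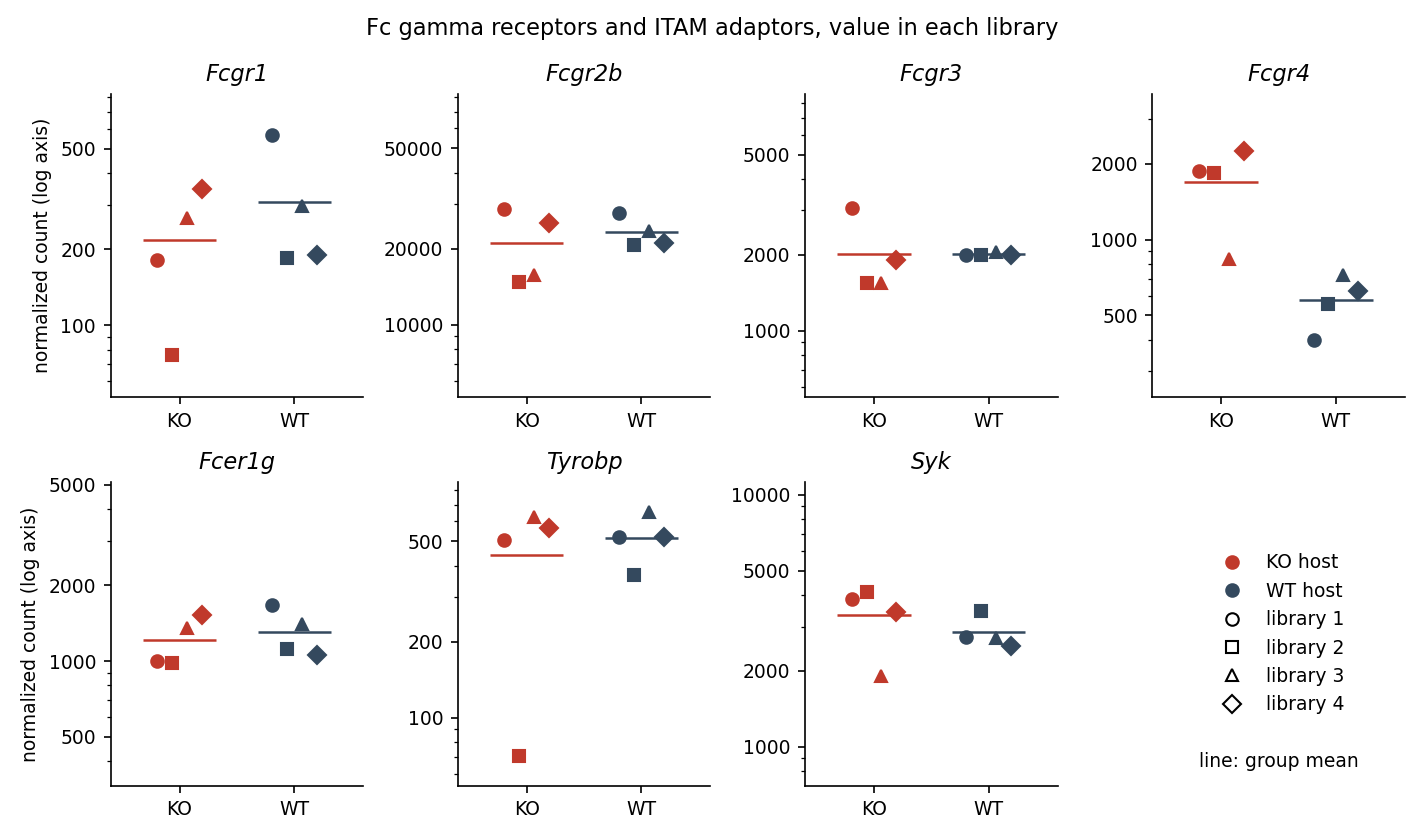
Normalized count (log axis) of each gene in each of the 4 KO and 4 WT libraries, with a line at the group mean and marker shapes for the library number. In the Fcgr4 panel the KO points, 839 to 2250, lie above the WT points, 400.0 to 725, while in the other 6 panels the groups overlap and KO library 2 is low for Tyrobp and Fcgr1.

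The common gamma chain Fcer1g, through which the activating receptors signal, was at 998, 983, 1347 and 1525 in KO libraries and at 1671, 1112, 1396 and 1056 in WT libraries. Both groups covered nearly the same range, and the log2 fold change was -0.11 (SE 0.28, 95% interval -0.69 to 0.47, limma adjusted p = 0.958). Tyrobp was at 509, 70.5, 622 and 564 in KO libraries and at 519, 368, 656 and 522 in WT libraries. All values but that of KO library 2 lay between 368 and 656, and the value of KO library 2 was worth an estimated 0.494 of a fragment. Its log2 fold change was -0.59 over all libraries (SE 0.59, 95% interval -1.82 to 0.64, limma adjusted p = 0.834) and 0.15 without KO library 2.

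The kinase Syk was at 3855, 4127, 1909 and 3442 in KO libraries and at 2718, 3460, 2690 and 2517 in WT libraries. KO libraries 1 and 2 were above the WT range and KO library 3 below it. The log2 fold change was 0.18 (SE 0.25, 95% interval -0.34 to 0.70, limma adjusted p = 0.893) and 0.43 without KO library 3.

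In all, 0 of the 7 genes passed the adjusted threshold, where 0.236% of all 16120 tested genes did. At an unadjusted limma p under 0.05 it was 1 of 7, Fcgr4, against 6.7% of all genes, and all 7 had the mean of at least 10 that the test required. The same gene was the 1 of 7 whose KO values all exceeded its WT values, which held for 2.02% of all genes. The median log2 fold change was -0.11 over the 7 genes and -0.12 over all genes tested, and leaving out KO library 1, 2 or 4 gave the 7 genes a median of -0.28, 0.05 or -0.23, in that order. Of the 7 genes, 2 had positive fold changes, against 43.4% of all genes.

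**Figure D3:**
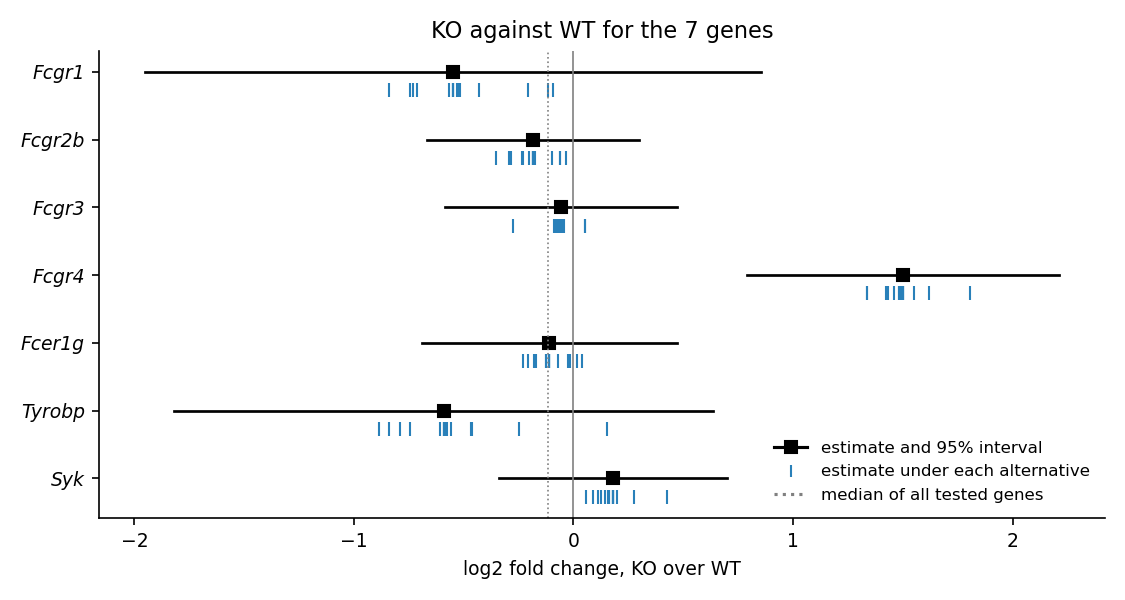
Log2 fold change of KO over WT (horizontal axis) for each of the 7 genes, with squares and lines for the estimate and its 95% interval, blue ticks for the estimate under each of 16 alternatives and a dotted line at the median of all tested genes, -0.12. The Fcgr4 interval, 0.79 to 2.21, lies to the right of 0, and the other 6 intervals include 0.

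The balance of activating to inhibitory receptors within each library does not depend on the scaling between libraries. Fcgr4 amounted to 6.48%, 12.4%, 5.34% and 8.88% of the Fcgr2b value in KO libraries 1 to 4, and to 1.44%, 2.68%, 3.09% and 2.97% in WT libraries 1 to 4. Every KO ratio was above every WT ratio. The mean log2 ratio was -3.67 ± 0.53 in KO and -5.35 ± 0.51 in WT libraries (SD, n = 4 each), a difference of 1.69 or 3.22-fold. An exact two-sided permutation test gave p = 0.0286, the smallest that 70 arrangements allow, and 0.0857 after Benjamini-Hochberg adjustment over the 3 ratios tested, which did not pass 0.05. With 4 libraries in each group, a single ratio at the smallest p could not pass this adjustment, so the failure says nothing about its size.

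Fcgr3 amounted to 10.7%, 10.5%, 9.86% and 7.54% of Fcgr2b in KO libraries and to 7.18%, 9.67%, 8.80% and 9.51% in WT libraries. These ranges overlapped, with a difference in mean log2 ratio of 0.13 (exact two-sided permutation p = 0.429, adjusted p = 0.486). The Fcgr1 ratio was 0.514% to 1.69% in KO and 0.890% to 2.04% in WT libraries, with a difference of -0.36 (exact two-sided permutation p = 0.486, adjusted p = 0.486). Set against the sum of all 4 receptors per kb, Fcgr4 made up 16.1% ± 5.09 in KO and 5.71% ± 1.57 in WT libraries, and Fcgr2b 65.2% ± 3.85 in KO and 74.4% ± 2.59 in WT libraries (SD, n = 4 each). Neither share overlapped between the groups, and since the shares add up to a whole, one cannot move without the others.

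**Figure D4:**
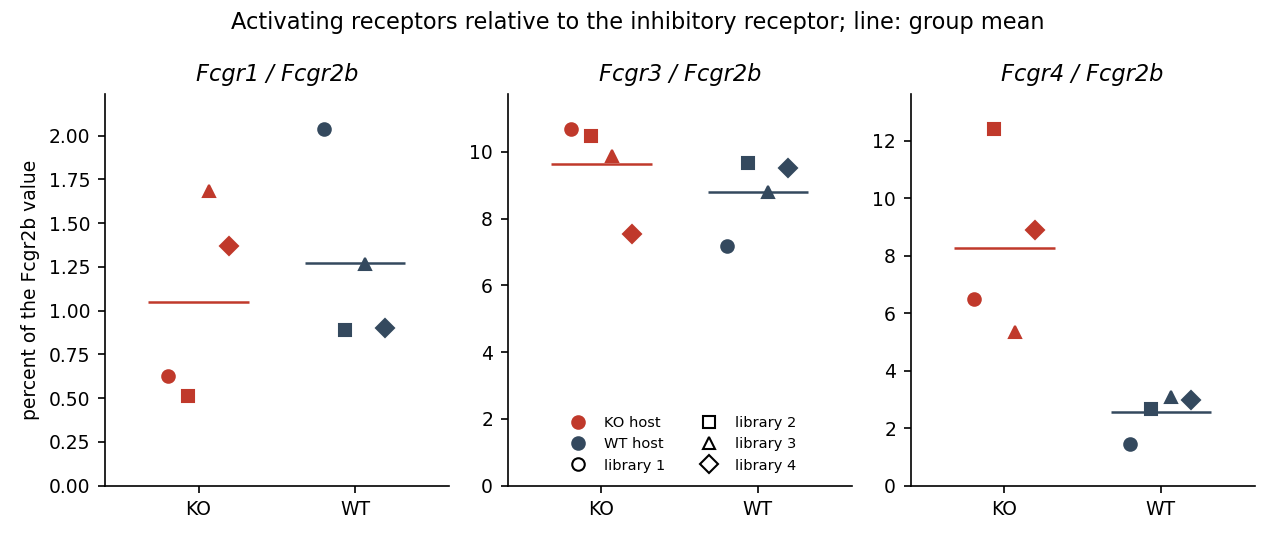
Value of each activating receptor as a percent of the Fcgr2b value in the same library (vertical axis, from 0), KO left and WT right, with a line at the group mean. The Fcgr4 ratios are 5.34% to 12.4% in KO and 1.44% to 3.09% in WT libraries, and the Fcgr1 and Fcgr3 ratios overlap.

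Marker genes of several cell types also had different ranges in the groups. The summed macrophage and monocyte markers, 18 genes led by Lyz2, ranged over 134592 to 294745 in KO and 223012 to 334490 in WT libraries, and 16 of 18 had negative fold changes. Summed CD8 T cell markers, 12 genes led by Lck, ranged over 20905 to 45476 in KO libraries, against 7844 to 26968 in WT libraries. Dendritic cell markers, summed over 11 genes led by H2-Aa, did not overlap: 40084 to 96477 in KO libraries, against 15729 to 29296 in WT libraries. H2-Aa and Cd74 made up most of this sum. In KO library 3 these were 28949 and 7491, and in WT library 4 they were 11605 and 2637. Of the 10 tested, 2 rose in KO, the MHC class II chain H2-Aa (log2 fold change 1.80, SE 0.29, limma adjusted p = 0.00762) and the invariant chain Cd74 (1.54, SE 0.23, limma adjusted p = 0.00393), which was singled out after its values were seen. The H2-Aa call was lost on leaving out KO library 4 (0.0577) or WT library 1 (0.0602), and also with a minimum mean of 50 (0.0525) and with robust hyperparameters (0.157). Of the dendritic list, 5 markers, Flt3, Clec9a, Batf3, Cd209a and Siglech, were at 0 in at least 1 library. Besides H2-Aa and Cd74, only Ccr7 of the tested markers did not overlap (log2 fold change 1.28, limma adjusted p = 0.463). Zbtb46 and Batf3 had negative fold changes (-0.72 and -1.36), and 8 of the 10 tested had positive ones. Whether the groups differed in dendritic cell content was not tested. KO library 3, lowest in Fcgr4 among KO libraries, was also lowest there in the macrophage and dendritic sums and highest in the CD8 T cell sum. The WT libraries did not show this order. WT library 1, lowest in Fcgr4 among them, had the highest macrophage sum, 334490. WT library 3, highest in Fcgr4 among them, was neither highest nor lowest in the macrophage sum (279466) or the dendritic sum (21714). Whether Fcgr4 follows these sums was not tested.

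Other cells known to carry Fc receptors include NK cells, neutrophils, mast cells and B cells. The NK markers, 7 genes led by Klrd1, summed to between 3384 and 5603 in KO libraries, against 982 to 3738 in WT libraries, with Ncr1, Klre1, Klra8, Eomes and Gzma at 0 in some library. The 5 neutrophil and mast cell markers summed to between 516 and 1490 in KO libraries, against 144 to 382 in WT libraries. Of them, Kit was at 399 to 972 in KO libraries, against 40.7 to 79.6 in WT libraries, also without overlap, and S100a8, S100a9 and Cxcr2 each had a mean under 10. Summed B and plasma cell markers, 6 genes led by Ighm, ranged over 1310 to 2779 in KO and 702 to 1526 in WT libraries. Fibroblast markers led by Postn (KO 2138 to 12811, WT 5031 to 11555) and endothelial and tumour markers led by Pecam1 (KO 1124 to 1656, WT 1014 to 3117) overlapped between the groups. Relative to the macrophage sum of its own library, Fcgr4 was at 0.633%, 0.926%, 0.623% and 0.887% in KO and at 0.120%, 0.201%, 0.259% and 0.280% in WT libraries, so the groups did not overlap on this scale either. Syk, too, did not overlap on this scale, at 1.31% to 2.08% in KO libraries, against 0.813% to 1.25% in WT libraries, while the other 5 genes overlapped. The scale was chosen after the values were seen. Its divisor, the macrophage sum, had a lower median in KO libraries, which raises any gene set against it there. The share of all genes without overlap on this scale was not counted. The part of dendritic, NK and other cells in the Fcgr4 difference was not tested.

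The genes whose pattern over the 8 libraries was most like that of each member were found among 3510 other genes with a mean of at least 1000, by the root-mean-square (RMS) difference of centred log2 values. For Fcgr4 these were Fgl2, a fibrinogen-like protein secreted by macrophages and T cells (RMS difference 0.28), and the cell cycle inhibitor Cdkn1a (0.29), where the median gene differed by 0.92. Being picked for likeness to Fcgr4, which was higher in KO libraries, both were bound to be higher there too. Their differences and calls are thus no separate support for that of Fcgr4. Fgl2 was at 10317 ± 3641 in KO and 3675 ± 832 in WT libraries (SD, n = 4 each) and rose in KO by 1.44 on the log2 scale (SE 0.25, limma adjusted p = 0.0128), a call that ended without any 1 of KO libraries 1 and 4 and WT libraries 1 and 2, with adjusted p of up to 0.123, or with a minimum mean of 50 (0.0538). Cdkn1a averaged 2032 ± 367 in KO and 843 ± 179 in WT libraries (SD, n = 4 each), a log2 difference of 1.28 (SE 0.28, limma adjusted p = 0.0594). Cdkn1a passed without KO library 3 (0.0327) or WT library 4 (0.0493), and with a pseudocount of 10 (0.0342), sample weights (0.00454) or robust hyperparameters (0.0467), and otherwise had adjusted p of up to 0.306.

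The closest pattern to Fcgr2b was that of Snap23 (0.11), a membrane fusion protein, then Snx5 (0.13), a sorting nexin of endosomes, and Fcgr2b and Fcgr3 were the closest pair among the 7 genes (0.20). Fcgr3 was most like Frs2 (0.09) and Itfg1 (0.13), and Fcgr1 most like Arsb (0.28), a lysosomal sulfatase, and the predicted gene Gm14681 (0.39). Fcer1g was closest to Trim44 (0.11) and Exoc3 (0.13), Tyrobp to the protease subunit Capn2 (0.32) and Tmco1 (0.37), and Syk to the small GTPase Rab1a (0.12) and Ak3 (0.14). None of these 12 genes passed the threshold, which the choice by likeness to members without a call made likely. Likeness over 8 libraries shares their depth and complexity.

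Around the 7 genes, 6 lists of related genes held 1 gene past the threshold in all. Among other Fc receptors it was Fcrls, an Fc receptor-like gene of resident macrophages and microglia. Fcrls was at 1746, 1169, 1330 and 1323 in KO libraries and at 7107, 2946, 4774 and 2548 in WT libraries, without overlap. It fell in KO by 1.54 on the log2 scale (SE 0.29, limma adjusted p = 0.0223), opposite in sign to Fcgr4, and the call ended without any 1 of KO libraries 2 and 4 and WT libraries 1 and 3, with adjusted p of up to 0.175, or with a minimum mean of 50 (0.0608). Of the list, 8 genes were tested, 4 with positive and 4 with negative fold changes, with a median log2 fold change of 1.32 that was -0.31 without KO library 2, -0.89 with a minimum mean of 50 and -0.57 with none. Of the 9 listed genes, 5 were at 0 in some library. Fcrl6, whose human counterpart binds MHC class II on cytotoxic lymphocytes, was at 458, 330, 216 and 62.4 in KO libraries and was listed at 0 in 3 WT libraries and at 31.5 in WT library 4 (limma adjusted p = 0.342).

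Receptors that pair with Fcer1g or Tyrobp had 0 of 20 tested genes past the threshold, 12 positive and 8 negative, with a median log2 fold change of 0.28. Single libraries moved that median: it became 0.18, 0.51 or 0.05 on omission of KO library 1, 3 or 4, and 0.10 or 0.0070 on omission of WT library 1 or 2. Trem2, a lipid-sensing partner of Tyrobp, averaged 1692 ± 664 in KO and 2332 ± 1596 in WT libraries (SD, n = 4 each), and WT library 1 was the highest of all 8. Its difference was -0.33 on the log2 scale (SE 0.38, limma adjusted p = 0.858), or 0.08 without that library and 0.21 with sample weights. Clec4e (Mincle), a glycolipid receptor that signals through Fcer1g, was at 3923, 2465, 1420 and 2105 in KO and at 755, 1230, 793 and 1837 in WT libraries (log2 fold change 1.10 with SE 0.33, limma adjusted p = 0.331). Its groups overlapped through WT library 4. Klrc2 (NKG2C), a partner of Tyrobp on NK and some T cells, was at 136, 938, 1144 and 1177 in KO and at 169, 129, 251 and 256 in WT libraries, with KO library 1 inside the WT range. Its difference was 1.73 on the log2 scale (SE 0.62, limma adjusted p = 0.592). Without KO library 1 it was 2.48 with a limma adjusted p of 0.0352, and elsewhere the adjusted p lay between 0.0751 and 0.926.

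Downstream kinases and adaptors had 0 of 28 past the threshold, 16 positive and 12 negative, with a median of 0.24. Omitting KO library 2 or 3 left a median of 0.08 or 0.11, omitting WT library 2 or 4 one of 0.0038 or 0.08, and sample weights gave 0.04. Malt1, which with Card9 and Bcl10 passes the Syk signal to NF-kappaB and also acts behind the T cell receptor, averaged 6405 ± 2397 in KO and 3537 ± 1059 in WT libraries (SD, n = 4 each), a log2 difference of 0.84 (SE 0.26, limma adjusted p = 0.355). The transmembrane adaptor Lat2 averaged 728 ± 249 in KO and 331 ± 187 in WT libraries (SD, n = 4 each), a log2 difference of 1.40 (SE 0.57, limma adjusted p = 0.702) that was 0.73 without WT library 2, the lowest at 64.4. The inhibitory arm, phosphatases, ubiquitin ligases and ITIM receptors, had 0 of 19 past it, 6 positive and 13 negative, with a median of -0.12, or -0.22 and -0.02 on omission of KO library 1 or 3 and -0.06 on omission of WT library 1. In that arm the ubiquitin ligases Cbl and Cblb were at 0.26 (SE 0.20, limma adjusted p = 0.802) and 0.97 (SE 0.27, limma adjusted p = 0.237) on the log2 scale. Cblb passed without WT library 4 (limma adjusted p = 0.0272) and with sample weights (0.0469). Siglece, a sialic acid receptor with ITIMs, was listed at 0 in 3 KO libraries and at 13.4 in KO library 4, against 46.5 to 98.4 in WT libraries (limma adjusted p = 0.657).

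The T cell counterparts had 0 of 6 past the threshold, 5 positive and 1 negative, with a median of 0.73, or 1.45 on omission of KO library 1 and 0.31 or 1.12 on omission of WT library 2 or 3. Cd3e was at 2587, 4002, 6339 and 5032 in KO and at 1829, 909, 1925 and 2752 in WT libraries (log2 fold change 1.31 with SE 0.31, limma adjusted p = 0.116). Its groups overlapped in that WT library 4 lay above KO library 1. Cd3e passed without WT library 4 (limma adjusted p = 0.0245, log2 fold change 1.53), with a pseudocount of 10 (0.0417) and with sample weights (0.00725), and otherwise had adjusted p of up to 0.394. Lck, the kinase that phosphorylates the CD3 chains, differed by 0.74 on the log2 scale (SE 0.27, limma adjusted p = 0.619). The phagocyte oxidase, which Fc receptor signals activate, had 0 of 5 past the threshold, with a median of 0.47 that was 0.11 without WT library 2 and 0.25 with sample weights. Its membrane subunit Cybb averaged 9313 ± 3254 in KO and 6440 ± 1465 in WT libraries (SD, n = 4 each), a log2 difference of 0.47 (SE 0.26, limma adjusted p = 0.770). The cytosolic subunit Ncf4 differed by 1.83 on the same scale (SE 1.17, limma adjusted p = 0.770), but by 0.50 without WT library 2, whose value was 2.84 while the remaining WT values were 117 to 201.

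**Figure D5:**
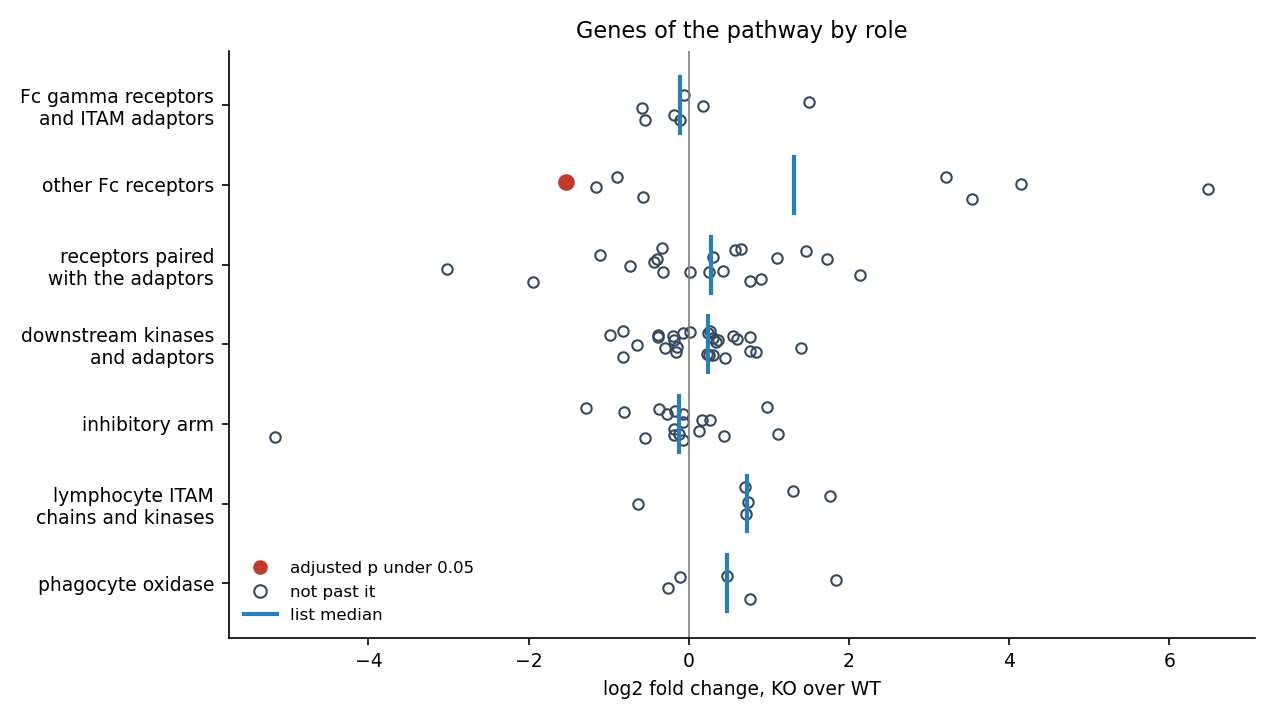
Log2 fold change of KO over WT (horizontal axis) for each tested gene, 1 row per group of genes, with a blue bar at the group's median, filled points for genes past the adjusted threshold and open points for the rest. Fcrls, at -1.54, is the 1 filled point, and Fcgr4, at 1.50, is the rightmost point in the top row.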

How the data were processed

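RNA of cells sorted from tumours as CD45+CD3e+CD8+, in which macrophage markers were also read, was compared between 4 Mtdh KO and 4 WT hosts. Each deposited value is a normalized signal of 1 gene in 1 library, read from the table's name as counts after DESeq2 scaling by the authors. Tools named in the submitters' processing notes are STAR 2.7.8a, Partek and DESeq2, with mm39 as the build and no roles. The counting tool, annotation and strand setting are not given in the sources used here. Low values stepped by about 1 read, but only 81.7% to 88.1% of values up to 500 reads were whole within 0.02 reads, so the read counts could not be restored and count tests were left out. Fragments were estimated from genes averaging 20 to 500 across the remaining libraries, as the number at which a Poisson draw leaves the observed share under 3 reads. The estimate takes the mean of the remaining libraries as the level of each gene, so real differences between libraries also enter it. Fragments were not observed, and a value under 1 is not a count of molecules.

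Genes with a mean of at least 10, 16120 in all, were fitted as log2(value + 1) with limma 3.58.1 in R 4.3.3 (eBayes with trend, two-sided, Benjamini-Hochberg over all genes). Fold changes are on that scale, and those of low genes depend on the pseudocount. With a pseudocount of 10 the log2 fold change went from 6.48 to 3.98 for Fcrl6 and from -5.16 to -2.68 for Siglece. Ratios were tested by exact permutation (SciPy 1.17.1). On simulated data of the same design, in which 14751 genes were tested, the fit recovered 35% of 100 genes with a log2 difference of 1, 82% of 50 with 2 and 98% of 50 with 3. The changed genes were drawn from those with a mean of at least 1000, with normal noise on the log2 scale. These rates therefore do not cover lower genes such as Fcgr1 and Tyrobp. Exon lengths are unions of GENCODE vM21 exons, matched by identifier. The members and lists were chosen with earlier results of these data known. Named genes are the members, Mtdh, each pathway list's highest mean and 2 smallest p, each marker list's highest mean, and the 2 genes most like each member. Alternatives covered pseudocount, minimum mean, scaling, replicate block, sample weights, robust hyperparameters and each library left out. The labels do not say how animals were batched, and p-values measure the spread between these libraries.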

Additional observations from a re-analysis of the deposited data

Results flagged for a closer look

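In 86 groups of 4 libraries, 1 group for each named gene and genotype, a library stood far from the other 3 in 4 groups. Chance alone gives about 1 in 20, which is near the share found. Fcrl6 was at 31.5 in WT library 4 and listed at 0 in the other WT libraries. Siglece was at 13.4 in KO library 4 and listed at 0 in the other KO libraries. Where the other 3 values are 0, as for Fcrl6 and Siglece, any value above 0 is flagged. Itfg1, one of the genes most like Fcgr3, was at 2582 in KO library 1 and 1289 to 1369 in the other KO libraries. Rab1a, the gene most like Syk, was at 24201 in WT library 2 and 20271 to 20688 in the other WT libraries. None of the 7 receptor, adaptor and kinase genes had such a library.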

How the results depend on the processing

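Among all genes, 38 passed, and 63 did with a pseudocount of 10, 15 with a minimum mean of 50, 112 with sample weights, and 7 to 70 with a library left out, fewest without KO library 4 and most without WT library 4. With a replicate block 0 genes passed by limma, 1101 had an unadjusted p under 0.05, and Fcgr4 had an adjusted p of 0.343. Same-numbered libraries correlated by 0.0162 to 0.0757 in their deviations, so the numbers were not taken to pair them. Among KO libraries, only KO library 2 correlated best with the WT library of its own number. Of the 7 genes, 1 passed, Fcgr4, with a pseudocount of 10, with sample weights, with robust hyperparameters and without KO library 3, and 0 to 1 passed over the omissions of a library. The Fcgr4 log2 fold change was 1.33 to 1.81 over the 16 alternatives, and Fcgr1, Fcgr2b and Syk also kept their sign in all 16. Fcgr3 and Fcer1g kept it in 14 and Tyrobp in 15, all without a call. The Fcgr4 over Fcgr2b difference was 1.43 to 1.87 over its alternatives, and paired by replicate number its exact two-sided sign-flip permutation p was 0.125, the smallest possible. Over the 43 named genes, 634 of 687 values under alternatives kept their call and either their sign or a distance under 1 SE from the main value. A call was gained in 24 and lost in 24, and 5 uncalled values turned sign by more than their SE. The cause was not tested. By the fragment estimate, Fcgr1 and Tyrobp rested on few molecules in some libraries, which was not measured directly.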
